A study of Mus musculus with 6 samples.

Results

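RNA levels of 10 genes for immune checkpoint and costimulatory ligands were compared between RNA-seq libraries of mouse tumour neutrophils that the labels divide by the G protein-coupled receptor GPR35. The 10 genes, Cd274, Pdcd1lg2, Cd80, Cd86, Cd276, Vsir, Havcr2, Lgals9, Pvr and Nectin2, were taken by symbol from the 21959 genes of the deposited table, and all 10 had a row. By their titles 3 libraries are GPR35 negative and 3 are GPR35 positive, below called the negative and the positive libraries. Per the labels all are neutrophils of tumours that grew from Hepa1-6, an established mouse hepatoma line. No genotype, strain, sex, age, treatment or time is given in the sources used here, and neither is how the cells were sorted or whether the host mice carried an altered gene. No label says that the replicates are separate animals, so the p-values speak only to the spread between these libraries, which may be technical. Each library held between 15742744 and 18314104 reads assigned to genes.

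Checkpoint ligands are surface or secreted proteins with which one cell restrains or stimulates a lymphocyte. PD-L1 (Cd274) and PD-L2 (Pdcd1lg2) bind the inhibitory receptor PD-1 on T cells. CD80 and CD86 bind CD28, which costimulates T cells, and CTLA-4, which restrains them, and both are typical of antigen-presenting myeloid cells. VISTA (Vsir) and TIM-3 (Havcr2) are found on myeloid cells as well as T cells, and galectin-9 (Lgals9) is a secreted lectin for which TIM-3 is one described receptor. B7-H3 (Cd276) is a B7 family member often present on tumour cells. PVR and nectin-2 (Nectin2) are adhesion molecules of epithelial and tumour cells that are bound by TIGIT and CD226 on T and NK cells. In a tumour the PD-1 ligands can be made by the tumour cells and by infiltrating myeloid cells, and interferon gamma, acting through the kinases JAK1 and JAK2, is a known inducer of PD-L1.

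In the mouse genome (GRCm38), both PD-1 ligand genes are neighbours, and Nectin2 and Pvr lie near each other. Cd274 (ENSMUSG00000016496) spans chr19:29367455-29388095 and Pdcd1lg2 (ENSMUSG00000016498) chr19:29410919-29471161, both on the plus strand with 22.8 kb between them. Nectin2 (ENSMUSG00000062300, chr7:19716644-19750483) and Pvr (ENSMUSG00000040511, chr7:19903578-19921160) are both on the minus strand with 153 kb between them. Cd80 (ENSMUSG00000075122, chr16:38455561-38496335, plus strand) and Cd86 (ENSMUSG00000022901, chr16:36603869-36666081, minus strand) lie 1789 kb apart. The others are Cd276 (ENSMUSG00000035914) at chr9:58524298-58555437 on the minus strand, Vsir (ENSMUSG00000020101) at chr10:60346851-60372684 on the plus strand, Havcr2 (ENSMUSG00000020399) at chr11:46454935-46481255 on the plus strand and Lgals9 (ENSMUSG00000001123) at chr11:78962974-78984946 on the minus strand. An annotated gene shares exon sequence with Cd274 (AC119228.1), Cd276 (Gm10657) and Nectin2 (Gm20512), so reads there may have been split or lost. These 3 genes were not analysed here.

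Promoter sequence was matched in RefSeq (GRCm38.p6) for 8 of the 10 genes, as windows of 250 bases before and 50 bases after a RefSeq start. For Cd80, Cd276, Lgals9 and Nectin2 this start lies inside the gene span given above, so the bases before it include annotated gene. The Nectin2 start used is at 19749573, while the annotated gene on the minus strand begins at 19750483. The stretch of Cd274 and the promoters of Pdcd1lg2 and Nectin2 are shown because they belong to the 2 PD-1 ligands, which were higher in positive libraries, and to a gene that was lower there. Capitals mark the IRF-type match in Cd274 and the GC boxes in Nectin2, and none were set in Pdcd1lg2.
Cd274 (chr19:29367352-29367381, plus strand): actgggtggcTTCGGTTTCacagacagcgg
Pdcd1lg2 (chr19:29410669-29410918, plus strand): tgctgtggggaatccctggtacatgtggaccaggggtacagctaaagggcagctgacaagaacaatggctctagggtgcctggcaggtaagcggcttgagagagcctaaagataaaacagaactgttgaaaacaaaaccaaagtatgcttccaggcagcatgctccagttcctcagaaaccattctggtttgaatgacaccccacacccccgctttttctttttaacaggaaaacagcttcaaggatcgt
Nectin2 (chr7:19749574-19749823, minus strand): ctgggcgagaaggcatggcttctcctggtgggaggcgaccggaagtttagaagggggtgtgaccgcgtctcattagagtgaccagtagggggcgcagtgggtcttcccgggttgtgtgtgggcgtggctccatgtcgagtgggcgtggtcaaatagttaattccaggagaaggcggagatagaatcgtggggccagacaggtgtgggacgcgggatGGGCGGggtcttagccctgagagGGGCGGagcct

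The Cd274 stretch lies in an annotated exon of Plgrkt, the neighbouring gene, and its match covers bases -76 to -68 relative to the RefSeq start of Cd274. Motifs were searched on both strands as plain letters in the 300-base windows, and a match is a description of the letters only. The IRF-type motif GAAANNGAA was found in Cd274 and Lgals9 and in 8.56% of all 32851 promoters of the same length. The PU.1 core GAGGAA was found in Pdcd1lg2, Cd276, Havcr2 and Lgals9 and in 28.3% of all promoters. The GC box GGGCGG was found in Cd274, Cd276, Vsir and Nectin2 and in 35.7% of all promoters. The interferon gamma activated sequence TTCNNNGAA, present in 8.30% of all promoters, and the C/EBP motif TTGCNNAA, present in 10.8%, were in none of the 8 windows. The windows also differed in base composition. The Cd276 promoter held 39 CpG and 78.3% G and C, and 4.45% of all promoters held as many CpG or more. All 250 bases before the Cd276 start used lie in annotated exons, so its composition and motifs are partly those of exons. The same holds for 185 of the bases before the start of Cd274 and 22 of those of Lgals9. Nectin2 held 20 CpG, while Pdcd1lg2, Cd80 and Havcr2 held 3 each, against a median of 7 over all promoters.

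The libraries held marker transcripts of several cell types besides neutrophils, and the levels of most lists moved with the groups. The counts of tested markers below stand against 23.3% higher and 45.5% lower among all 10060 genes tested. Gpr35, the gene the labels name, was at 2.02, 1.378 and 1.30 FPKM (fragments scaled to exon length and library size) in negative replicates 1, 2 and 3 and at 18.2, 21.9 and 20.4 FPKM in the positive ones. The 18 mature neutrophil markers summed to 960 to 1236 FPKM in negative and 10759 to 11707 FPKM in positive libraries, and all 18 rose. The macrophage and monocyte markers summed to 39.2 to 53.4 and 959 to 991 FPKM, and the 13 of 14 that were tested rose, 7 of them having passed the filter only through the positive libraries, C1qb from 8.61 to 307 FPKM and Adgre1 from 0.540 to 18.2 FPKM. The 19 hepatocyte and hepatoma markers summed to 32075 to 33759 FPKM in negative and 20996 to 21569 FPKM in positive libraries, and of the 18 tested 16 fell, Serpina1a rose and Apoa2 was not called. The hepatoma sum thus exceeded the neutrophil sum in all 6 libraries, although the labels name neutrophils. The 15 pan-leukocyte markers summed to 200 to 270 and 2224 to 2283 FPKM, and all 15 rose. Dendritic cell markers summed to 10.2 to 12.6 and 37.6 to 41.7 FPKM, with 7 of 10 higher without the filter, against 3440 of all 19818 genes. The filter left 3 of them, of which Batf3 and Itgax passed only through the positive libraries. T, B and NK cell markers, of which 13 of 14 were used, summed to 14.2 to 20.04 and 15.6 to 17.8 FPKM, and of the 5 tested (Cd3d, Cd3g, Cd8a, Cd8b1 and Cd2) 0 were called by limma, 0 by limma-voom and 0 at an unadjusted p under 0.05. The B cell markers and the NK markers Ncr1 and Klrb1c lay below the filter. Without the filter 1 of the 13 T, B and NK cell markers was called higher and 1 lower, against 3440 and 4382 of all 19818 genes. No marker of these lists was at 0 in all 6 libraries. The part of this cell makeup in the results below was not tested except by the ratios to marker sums given further on, and in bulk RNA fewer cells of a type and less RNA per cell cannot be told apart.

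Of the 10 ligand genes, 6 were higher in positive libraries, 3 were lower and 1 was not called. All 10 passed the filter of at least 1 FPKM in at least 3 libraries, Cd86 only through the positive libraries, where it is high. Without the filter the same counts of 6 and 3 were called, against 3440 and 4382 of all 19818 genes. The 6 that rose were Cd274, Pdcd1lg2, Cd80, Cd86, Vsir and Havcr2, and the 3 that fell were Cd276, Pvr and Nectin2. Lgals9 differed by less than the spread of its replicates. Of all 10060 genes tested with limma, 23.3% were called higher and 45.5% lower at an adjusted p under 0.05. The median log2 change of the 10 genes was 2.44, against -0.19 over all genes tested. The 2 groups did not overlap for 9 of the 10 genes, against 72.5% of all genes tested. Log2 changes were computed on log2(FPKM + 1), so those of low genes come out too small, and folds are ratios of mean FPKM. Scaling by the median of ratios moved the median of all genes by 0.12 and turned the share of calls that were higher from 33.9% to 47.4%, while the 10 genes kept their 6 rises and 3 falls.

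**Figure D1:**
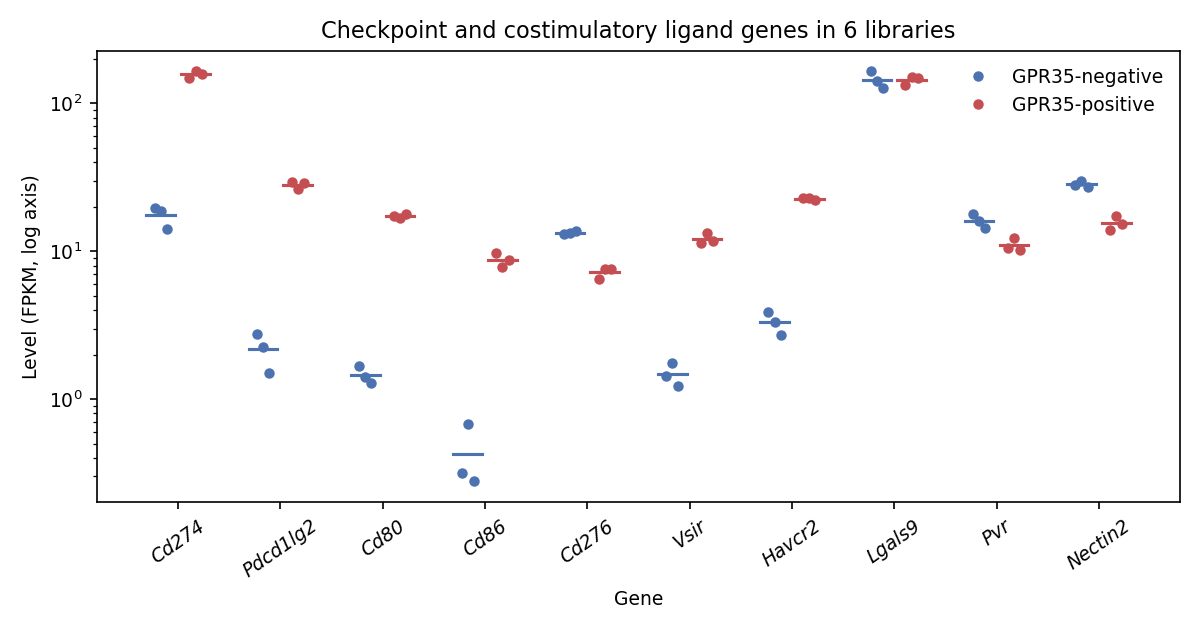
FPKM of the 10 ligand genes on a log axis in the 3 negative and 3 positive libraries, with points for libraries and lines for the group means. Cd274 was at 14.1 to 19.6 FPKM in negative and 149 to 165 FPKM in positive libraries, Lgals9 overlapped, and Cd276, Pvr and Nectin2 were lower in all positive libraries.

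Both ligands of PD-1 rose, and Cd274 reached the highest mean level of the 10 genes in positive libraries. Cd274 was at 19.6, 18.7 and 14.1 FPKM in negative replicates 1, 2 and 3 and at 149, 165 and 158 FPKM in positive replicates 1, 2 and 3. All positive libraries lay far above the highest negative library. The means were 17.5 ± 2.97 and 158 ± 7.77 FPKM (SD, n = 3 each), a 9.02-fold difference, with a log2 change of 3.11 (SE 0.11, adjusted p = 3.6e-09, limma). The values rest on 802 to 1224 reads in the negative and 9268 to 10505 reads in the positive libraries. Among all genes tested its mean level moved from the 71.5 to the 96.7 percentile.

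Pdcd1lg2, which encodes the second PD-1 ligand, was at 2.75, 2.26 and 1.49 FPKM in the negative and 29.2, 26.4 and 28.8 FPKM in the positive libraries. The groups did not overlap, and the lowest value was again that of negative replicate 3. The means were 2.17 ± 0.635 and 28.1 ± 1.47 FPKM (SD, n = 3 each), a 13.0-fold difference, with a log2 change of 3.22 (SE 0.13, adjusted p = 1.02e-08, limma). Summed, the PD-1 ligands went from 19.6 to 186 FPKM. Cd274 stayed the more abundant of the pair in every library, with Cd274 to Pdcd1lg2 ratios of 7.13, 8.29 and 9.44 in negative and 5.12, 6.23 and 5.51 in positive libraries. The ratio was lower in all 3 positive libraries, but the two-sided exact permutation p of 0.1 is the smallest that 3 against 3 libraries allow (0.15 adjusted over the 6 ratios tested).

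The B7 ligands of CD28 and CTLA-4, Cd80 and Cd86, rose from low levels. Cd80 was at 1.68, 1.40 and 1.29 FPKM in the negative and 17.3, 16.7 and 17.8 FPKM in the positive libraries. All positive libraries lay above all negative ones. The means of 1.46 ± 0.200 and 17.3 ± 0.590 FPKM (SD, n = 3 each) differed 11.9-fold, with a log2 change of 2.90 (SE 0.09, adjusted p = 1.45e-09, limma). Cd86 was at 0.317, 0.677 and 0.278 FPKM in the negative and 9.73, 7.78 and 8.77 FPKM in the positive libraries. It had the lowest level of the 10 genes in each negative library, and the groups did not overlap. The means of 0.424 ± 0.22 and 8.76 ± 0.974 FPKM (SD, n = 3 each) differed 20.7-fold, with a log2 change of 2.78 (SE 0.12, adjusted p = 1.41e-08, limma). The negative values of Cd86 rest on 20, 42 and 16 reads, and the 16 reads have an exact Poisson 95% interval of 9.15 to 26.0, which covers counting error only. The size of its fold is therefore less certain than that of Cd274, while the 465 to 610 reads in positive libraries lie well outside such intervals. The Cd80 to Cd86 ratio was 5.29, 2.07 and 4.63 in negative and 1.78, 2.14 and 2.03 in positive libraries. These ratios overlapped (two-sided exact permutation p = 0.2, 0.24 adjusted over 6 ratios).

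Vsir and Havcr2, which encode the immunoglobulin-family checkpoint proteins VISTA and TIM-3, rose as well. Vsir was at 1.43, 1.77 and 1.23 FPKM in the negative and 11.4, 13.4 and 11.8 FPKM in the positive libraries. Every positive library exceeded every negative one. The means were 1.48 ± 0.271 and 12.2 ± 1.06 FPKM (SD, n = 3 each), an 8.25-fold difference, with a log2 change of 2.42 (SE 0.10, adjusted p = 1.31e-08, limma). Havcr2 was at 3.9, 3.32 and 2.73 FPKM in the negative and 23.02, 22.8 and 22.3 FPKM in the positive libraries. It was the least variable of the 10 genes among positive libraries, and its groups did not overlap. Its means of 3.32 ± 0.584 and 22.7 ± 0.387 FPKM (SD, n = 3 each) differed 6.84-fold, the smallest fold of the 6 genes that rose, with a log2 change of 2.46 (SE 0.10, adjusted p = 9.89e-09, limma).

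Lgals9, the galectin that TIM-3 is described to bind, was the most abundant of the 10 genes in every negative library, and its difference between the groups did not pass the test. It was at 165, 141 and 126 FPKM in the negative and 133, 151 and 148 FPKM in the positive libraries. The groups overlapped fully. The means of 144 ± 19.5 and 144 ± 9.86 FPKM (SD, n = 3 each) gave a ratio of 1.002 and a log2 change of 0.01 (SE 0.10, adjusted p = 0.94, limma), with a 95% interval of -0.21 to 0.23. The Lgals9 to Havcr2 ratio went from 42.3, 42.4 and 46.2 in negative to 5.78, 6.66 and 6.67 in positive libraries. These ratios did not overlap (two-sided exact permutation p = 0.1, the smallest possible, 0.15 adjusted over 6 ratios).

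The 3 genes that fell, Cd276, Pvr and Nectin2, fell by less than 2-fold each. Cd276 was at 13.0, 13.4 and 13.7 FPKM in the negative and 6.48, 7.57 and 7.58 FPKM in the positive libraries. The groups did not overlap. Its means of 13.4 ± 0.342 and 7.21 ± 0.633 FPKM (SD, n = 3 each) gave a ratio of 0.540 and a log2 change of -0.81 (SE 0.08, adjusted p = 1.61e-05, limma). Nectin2 was at 28.1, 29.98 and 27.1 FPKM in the negative and 13.9, 17.2 and 15.2 FPKM in the positive libraries. All positive libraries were lower than all negative ones. Its means of 28.4 ± 1.48 and 15.5 ± 1.64 FPKM (SD, n = 3 each) gave a ratio of 0.545 and a log2 change of -0.84 (SE 0.09, adjusted p = 1.67e-05, limma).

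Pvr, which with nectin-2 is bound by TIGIT, was at 17.9, 15.9 and 14.3 FPKM in the negative and 10.6, 12.3 and 10.1 FPKM in the positive libraries. Its groups lay closer together than those of Cd276 and Nectin2 but did not overlap. The means of 16.1 ± 1.80 and 11.0 ± 1.13 FPKM (SD, n = 3 each) gave a ratio of 0.685 and a log2 change of -0.51 (SE 0.10, adjusted p = 0.00141, limma). The Cd276 to Nectin2 ratio was 0.463, 0.446 and 0.506 in negative and 0.464, 0.440 and 0.498 in positive libraries (two-sided exact permutation p = 0.8, also 0.8 adjusted over 6 ratios). The Nectin2 to Pvr ratio went from 1.57, 1.88 and 1.89 to 1.32, 1.40 and 1.501, without overlap (two-sided exact permutation p = 0.1, the smallest possible, 0.15 adjusted over 6 ratios).

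The order of the 10 genes by level changed between the groups. FPKM is a level per length, so the genes can be ranked against each other. In negative libraries Lgals9 led at 144 FPKM, followed by Nectin2, then by Cd274 and Pvr, whose libraries overlapped, and by Cd276. Havcr2, Pdcd1lg2, Vsir and Cd80 followed, each overlapping its neighbour in the order, and Cd86 was last. In positive libraries Cd274 and Lgals9 led and overlapped, followed by Pdcd1lg2, Havcr2, Cd80 with Nectin2, Vsir with Pvr, Cd86 and last Cd276. Cd80 overlapped Nectin2 and Vsir overlapped Pvr, and the other neighbours were separate.

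The summed level of the 10 genes was 228 ± 25.6 FPKM in negative and 424 ± 18.6 FPKM in positive libraries (SD, n = 3 each), a 1.86-fold difference. Of that sum, Lgals9 made up 63.0 ± 1.76% in negative and 34.0 ± 0.902% in positive libraries. Cd274 made up 7.63 ± 0.633% and 37.1 ± 0.286%. Both PD-1 ligands together went from 8.56% to 43.8% of the sum, and Cd276, Pvr and Nectin2 together from 25.5% to 7.92%. The shares lay close together among the replicates of each group.

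**Figure D2:**
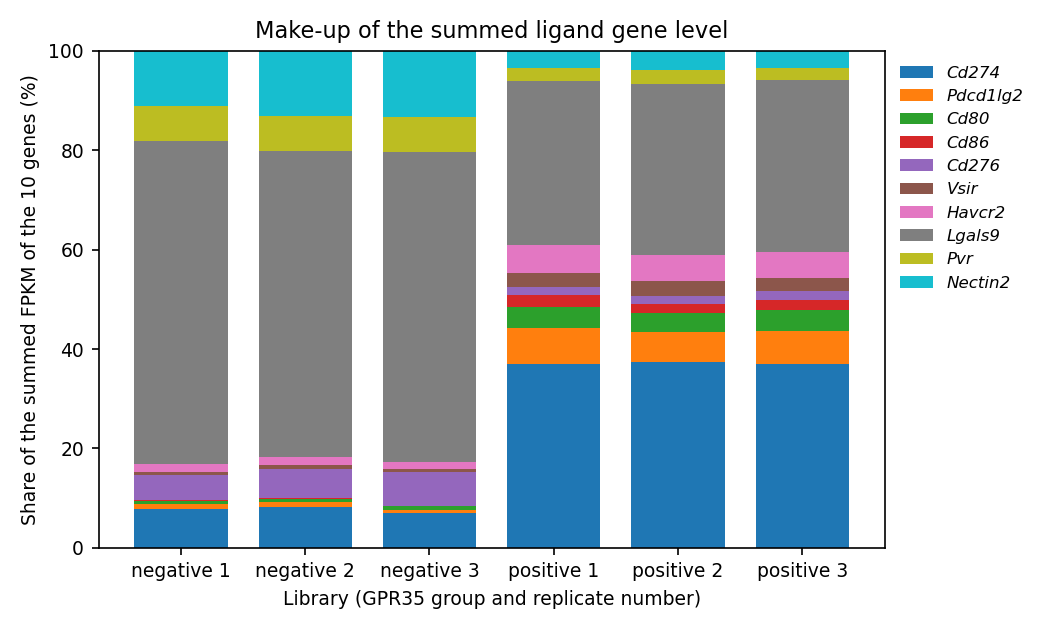
Share of the summed FPKM of the 10 ligand genes, in percent, taken by each gene in each of the 6 libraries, as stacked bars. Lgals9 filled 61.7 to 65.0% of the bars of negative libraries, while Cd274 filled 36.9 to 37.4% of those of positive libraries.

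The ratios of the 10 genes were set beside those of cell type markers. The ratios of positive to negative means were 6.84 to 20.7 for the 6 genes that rose. Over the same libraries the neutrophil markers had ratios of 4.77 to 12.5 with a median of 10.2. The pan-leukocyte markers had 1.76 to 13.7 with a median of 8.43. The tested macrophage and monocyte markers had 2.57 to 35.6 with a median of 27.6. Of these 13, 7 passed the filter only through the positive libraries, which favours high ratios, and the untested Ccr2 had 2.87. Cxcr1 of the neutrophil list and Was of the pan-leukocyte list also passed only through the positive libraries. The 3 genes that fell had ratios of 0.540 to 0.685, and the tested hepatocyte and hepatoma markers 0.454 to 1.65 with a median of 0.657. Lgals9, at 1.002, lay between the median of the hepatoma markers and those of the leukocyte markers.

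**Figure D3:**
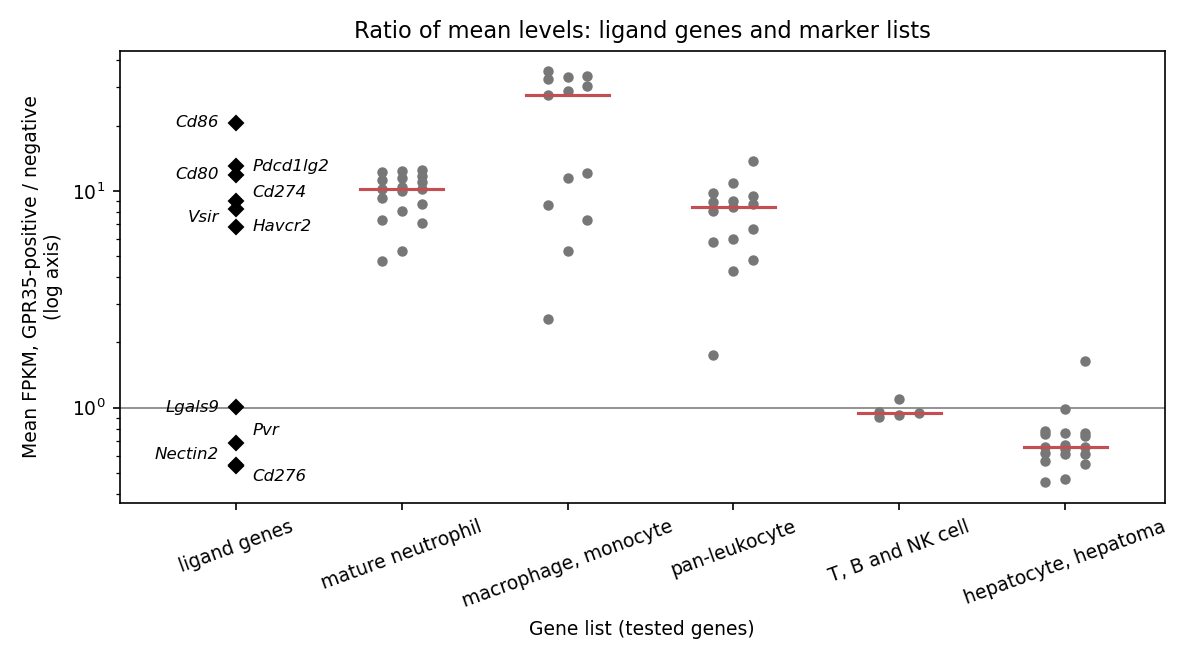
Ratio of mean FPKM in positive to negative libraries on a log axis, for the 10 ligand genes (diamonds) and the tested genes of 5 marker lists (dots, with a line at the median). Cd86 at 20.7 is the highest ligand gene, and Cd276, Pvr and Nectin2 lie among the hepatoma markers, whose median is 0.657. Of the 13 macrophage and monocyte markers shown, 7 passed the filter only through the positive libraries.

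To test whether each gene moved by another ratio than the hepatoma markers, its log2(FPKM + 0.1) was taken relative to the log2 of the summed hepatocyte and hepatoma markers of the same library. On this scale 7 of the 10 genes were higher in positive libraries and 1 was lower, against 62.6% and 0.805% of all genes tested. Cd274 was higher by 3.8 (SE 0.13, adjusted p = 2.75e-09, limma), and the 6 genes that rose lay between 3.38 for Havcr2 and 4.78 for Cd86. Lgals9, not called in FPKM, was higher by 0.63 relative to the hepatoma sum (SE 0.11, adjusted p = 0.000447, limma). Pvr differed from the hepatoma sum by 0.08, with a 95% interval of -0.18 to 0.35 (adjusted p = 0.551, limma). Nectin2 differed by -0.25 (SE 0.10, adjusted p = 0.0518, limma). Cd276 was lower, with a log2 difference of -0.26 (SE 0.10, adjusted p = 0.0372, limma). The calls of Cd276 and Nectin2 lie at the threshold: without one of 5 of the 6 libraries Cd276 had an adjusted p of 0.0532 to 0.125, and without negative replicate 3 or positive replicate 2 Nectin2 had 0.0322 and 0.0145. Each library's marker sum was subtracted from all genes, so its error is shared, while limma treats genes as independent. Such p-values can be too small and intervals too narrow. Abundant genes set most of the sum. In negative libraries Trf, Krt18, Rbp4 and Krt8 had means of 10855, 6522, 6403 and 5379 FPKM, of a mean hepatoma sum of 32928.

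The same comparison was made relative to the summed pan-leukocyte markers, on which scale 2 of the 10 genes were higher and 5 lower, against 1.0% and 95.8% of all genes tested. Cd274 differed from the leukocyte sum by -0.10, with a 95% interval of -0.38 to 0.19 (adjusted p = 0.477, limma). Cd80 differed by 0.21, with an interval of -0.07 to 0.50 (adjusted p = 0.136), and Vsir by -0.30, with an interval of -0.64 to 0.03 (adjusted p = 0.0727). Pdcd1lg2 was higher by 0.40 (SE 0.15, adjusted p = 0.0172) and Cd86 by 0.87 (SE 0.23, adjusted p = 0.00212), while Havcr2 was lower, with a log2 difference of -0.53 (SE 0.13, adjusted p = 0.00124). Without positive replicate 1 or 3 the adjusted p of Pdcd1lg2 was 0.0624 or 0.0601. The limit on p-values and intervals given for the hepatoma sum holds here too. The leukocyte sum itself ran from 200 to 270 FPKM over the negative libraries. Abundant genes set most of this sum too. In positive libraries Tyrobp, Fcer1g and Cd53 had means of 754, 589 and 370 FPKM, of a leukocyte sum of 2224 to 2283 FPKM. With nearly all genes called, the adjustment also changed p-values little. For Pdcd1lg2, Cd80 and Cd86 the direction depended on which marker sum was used: relative to the macrophage and monocyte sum Cd86 differed by -0.25, Pdcd1lg2 by -0.72 and Cd80 by -0.91. Cd274, Vsir and Havcr2 had negative differences from the pan-leukocyte, the neutrophil and the macrophage sum, at -1.22, -1.43 and -1.65 from the last. In positive libraries C1qb, Cd68, C1qc and C1qa had means of 307, 253, 183 and 173 FPKM, of a macrophage and monocyte sum of 959 to 991 FPKM. Differences from that sum are thus mainly differences from these genes. Ly6c2 and Cx3cr1, with ratios of 2.57 and 5.30, had means of 3.64 and 1.32 FPKM there and hardly entered it. Relative to the mean log2 level of the leukocyte markers in place of their sum, Cd274 was higher by 0.38 (adjusted p = 0.0071) and Havcr2 differed by -0.04 (adjusted p = 0.713). Lgals9, Pvr, Nectin2 and Cd276 differed from the leukocyte sum by -3.27, -3.82, -4.15 and -4.16, and lay below every leukocyte, neutrophil and macrophage sum under all alternatives.

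**Figure D4:**
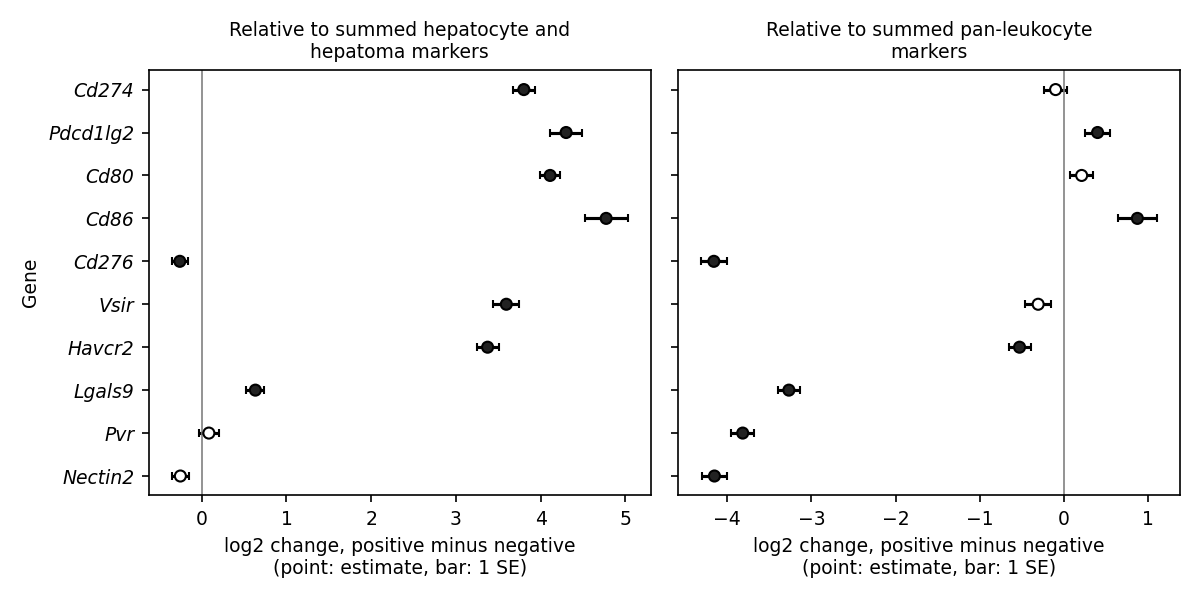
Log2 change of each ligand gene relative to the summed hepatoma markers (left) and the summed pan-leukocyte markers (right), with bars of 1 SE and filled points where the adjusted p is under 0.05. Relative to the hepatoma sum Pvr lies at 0.08 and Cd86 at 4.78, and relative to the leukocyte sum Cd274 lies at -0.10 and Cd276 at -4.16.

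Of 7 genes for receptors that bind these ligands on T and NK cells, 4 were tested, of which 0 rose and 2 fell, against 23.3% and 45.5% of all genes tested, with a median log2 change of -0.29. Without the filter 1 of the 7 was called higher and 1 lower, against 3440 and 4382 of all 19818 genes. At an unadjusted p under 0.05 in limma 0 rose, and limma-voom, which could test 3 of them, gave 0 rises. Tigit, the inhibitory receptor for PVR and nectin-2, went from 16.9 ± 2.26 to 12.3 ± 0.389 FPKM (SD, n = 3 each; log2 change -0.43, adjusted p = 0.00263, limma). Ctla4 went from 2.34 to 1.71 FPKM (adjusted p = 0.0328, and 0.115 under median-of-ratios scaling). Pdcd1, the receptor for PD-L1 and PD-L2, was at 3.76 and 2.87 FPKM (adjusted p = 0.107). Pvrig, below the filter, was at 0.149 and 1.11 FPKM, and its groups did not overlap.

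Among 20 other costimulatory and coinhibitory surface genes, 15 were tested, of which 10 rose and 2 fell, against 23.3% and 45.5% of all genes tested. Of the 10, Icosl, Cd200r1 and Tnfsf9 passed the filter only through the positive libraries, where they are high. The median log2 change of those tested was 1.30, against -0.19 over all genes tested. Without the filter on low values the median over all 20 was 0.27. Entpd1, which encodes the ectonucleotidase CD39, went from 8.30 ± 0.555 to 100.4 ± 3.52 FPKM (SD, n = 3 each; log2 change 3.45, adjusted p = 4.16e-10, limma). Tnfsf14, encoding the TNF family ligand LIGHT, went from 16.1 to 200.1 FPKM, a log2 change of 3.56. Sirpa, the myeloid receptor for CD47, went from 2.46 to 37.7 FPKM, a log2 change of 3.49. Ceacam1, for which TIM-3 is a described partner, went from 1.23 to 7.94 FPKM, and Tnfsf9, the ligand of 4-1BB, from 0.870 to 6.60 FPKM. The 2 that fell were Fgl1, a liver-secreted ligand of LAG-3 (log2 change -0.47), and Igsf11, a described VISTA ligand (log2 change -0.65).

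Of 14 genes of interferon gamma signalling and of PD-L1 and CD86 turnover, 12 were tested. Of these 9 rose and 1 fell, against 23.3% and 45.5% of all genes tested. Their median log2 change was 0.50, against -0.19 over all genes tested. Nfkb1 went from 2.80 to 11.0 FPKM (log2 change 1.66) and the kinase gene Jak2 from 7.03 to 23.8 FPKM (log2 change 1.63). Jak1 went from 18.1 to 38.2 FPKM and Stat3 from 31.8 to 45.7 FPKM. Cmtm6, which encodes a membrane protein that keeps PD-L1 from degradation, went from 25.8 to 44.1 FPKM (log2 change 0.75). These rises were smaller than those of the PD-1 ligands. Ifngr1 fell, with a log2 change of -0.21, and was not called under median-of-ratios scaling (adjusted p = 0.397).

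Of 12 relatives of the ligands in the galectin, TIM and nectin families, 6 lay below the filter. The other 6 gave 2 rises and 1 fall, against 23.3% and 45.5% of all genes tested. Their median log2 change was 0.11, against -0.19 over all genes tested. Lgals3, a galectin abundant in myeloid and epithelial cells, went from 688 to 1279 FPKM (log2 change 0.89, adjusted p = 1.76e-06, limma), and Lgals8 from 13.3 to 19.3 FPKM (log2 change 0.50). Lgals1, at 430 and 435 FPKM, was not called, as was the case for Lgals9. Cadm1, which encodes a nectin-like adhesion molecule, fell, with a log2 change of -0.30, and was not called under median-of-ratios scaling (adjusted p = 0.136). Havcr1 was at 0 in all 6 libraries.

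For each of the 10 genes the 2 tested genes outside these lists with the most similar profile were taken, among 9684 candidates, by the root-mean-square distance of centred log2(FPKM + 1) over the 6 libraries. With 6 libraries in 2 groups the distance mainly follows the size of the group difference, so it is a description only. Cd274 was closest to Themis2 (distance 0.0228) and Csf2rb (0.0318), and Pdcd1lg2 to Samsn1 (0.0270) and Olr1 (0.0577). Cd80 was closest to Cd38 (0.0361) and Rsad2 (0.0438), and Cd86, at larger distances, to Ltb4r1 (0.0948) and Mapk13 (0.101). Vsir was closest to Chd7 (0.0560) and Siglece (0.0640), and Havcr2 to Sp140 (0.0423) and Dok2 (0.0502). Csf2rb encodes a chain of the receptor for the cytokine GM-CSF and Ltb4r1 a receptor for the lipid leukotriene B4, both found on myeloid cells. Most of the nearest genes were not assigned to a cell type here, and the cells of origin were not tested. Nectin2 was closest to Hs3st1 (0.0209) and Prox1 (0.0344), the latter a transcription factor of hepatocytes, Cd276 to Ablim3 (0.0286) and Tspan9 (0.0292), and Pvr to Ints3 (0.0246) and Cpped1 (0.0373). Lgals9 was closest to Gpbp1l1 (0.0350) and Psen2 (0.0366).

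The genes around the 2 PD-1 ligand genes on chromosome 19 were taken by position. Within 200 kb of the pair, 5 other genes were tested, of which 3 rose and 2 fell, against 23.3% and 45.5% of all genes tested. Plgrkt encodes a plasminogen receptor, and 64 bases separate its annotated span from that of Cd274. It went from 5.86 to 30.1 FPKM (log2 change 2.19, adjusted p = 3.00e-08, limma). Jak2, 54.4 kb from Cd274, had a log2 change of 1.63, and Ric1 one of 1.41. Both PD-1 ligand genes had larger changes than these 5. Ermp1 fell, with a log2 change of -0.64, and Insl6 had -0.24 (adjusted p = 0.0152, and 0.291 under median-of-ratios scaling).

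**Figure D5:**
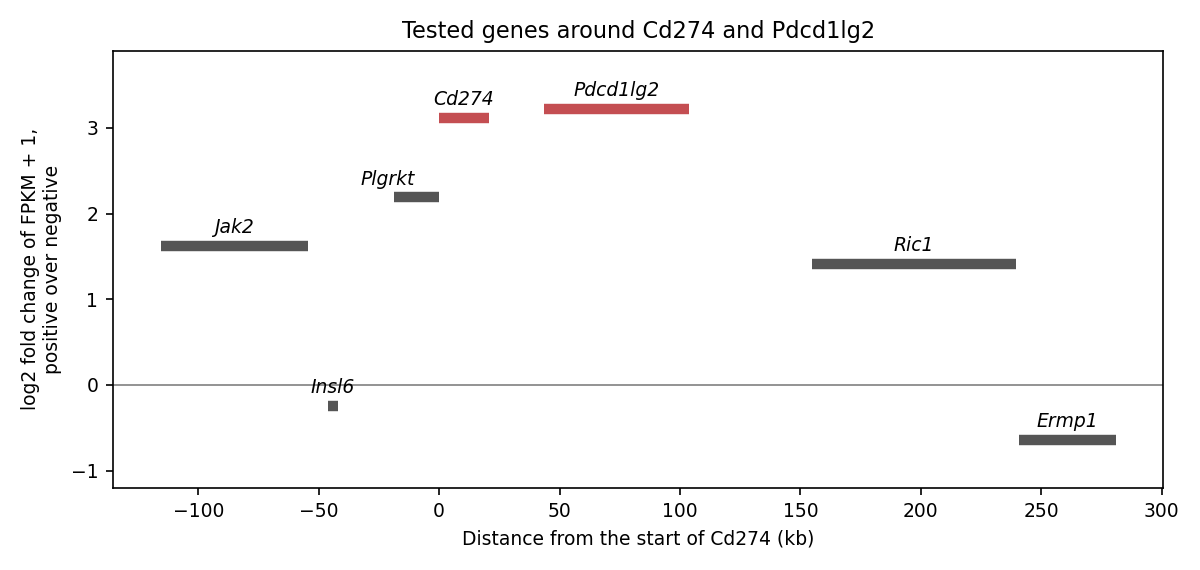
Log2 change of the tested genes around Cd274 and Pdcd1lg2, by distance in kb from the Cd274 start. Cd274 (3.11) and Pdcd1lg2 (3.22) are highest, Jak2, Plgrkt and Ric1 lie between 1.41 and 2.19, and Insl6 and Ermp1 lie below 0.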

How the data were processed

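Per the labels' protocols, Trizol was used for total RNA and the NEBNext Ultra II kit for the libraries. The authors deposited 1 table of FPKM for all 6 libraries, per the file headers. The submitters' processing notes name DESeq 1.38.3, HTSeq 0.9.1, HISAT2 2.1.0 and fastp 0.22.0, with no roles, and the human build GRCh38, although the table holds mouse Ensembl IDs. The annotation and the use of strand in counting are not given in the sources used here, so reads of a gene and of an overlapping antisense gene cannot be told apart.

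Symbols, positions and exon lengths came from GENCODE M21 (GRCm38), which lists 21902 of the 21959 IDs. With these lengths, 97.7% of FPKM values above 0 were whole reads within 0.02 reads, which gave the read totals and the reads behind each value. Replicates differed beyond sampling noise (mean chi-square per gene 4.86 to 19.8), and all were kept as separate samples.

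Groups were compared with limma-trend (limma 3.58.1, R 4.3.3), two-sided, on log2(FPKM + 1) with no other term, for genes reaching 1 FPKM in 3 or more libraries, with Benjamini-Hochberg adjustment over all 10060 genes at 0.05. "Rose", "fell", "higher" and "lower" of single genes refer to this call. It was tested on simulated data in which few genes changed, equally often up and down. That setting does not cover data like these, in which most genes were called. Ratios to marker sums used a pseudocount of 0.1. Ratios between ligand genes used exact permutation tests (scipy 1.17.1). Alternatives were leaving out each library, a replicate block, other filters and pseudocounts, median-of-ratios scaling, limma-voom on the recovered reads and other marker sums. The 10 genes, the lists and the tests were chosen with earlier results of these data known. Named genes are the 10, the up to 5 smallest p-values of each list and the 2 nearest profiles for each gene. Other list members, neighbouring genes and the promoter motifs were picked after values or sequences were seen. Scripts ran in Python 3.11.15 with pandas 2.3.3, numpy 2.4.6 and matplotlib 3.10.9.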

Additional observations from a re-analysis of the deposited data

How the results depend on the processing

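For the difference between the groups, over the 10 genes and 12 alternatives, 116 values kept direction and call and 4 changed sign. The 4 were Lgals9, never called, which ranged from -0.0809 to 0.1104 when 1 library was left out and was -0.00267, -0.0809, -0.0269 and -0.0121 without negative replicates 2 and 3 and positive replicates 2 and 3. Genes called lower numbered 4575, and 3036 under median-of-ratios scaling. Correlations of deviations were -0.002, 0.400 and -0.064 for libraries of the same replicate number and -0.373 to 0.248 for those of different numbers. With 3 libraries per group these values cannot settle whether the numbers pair the libraries. With the replicate block 2365 genes were higher and 4633 lower.

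Relative to the hepatoma markers, Pvr, never called, ranged from -0.0139 to 0.1646 when 1 library was left out, was -0.0139 and -0.0100 without negative replicate 3 and positive replicate 2, and turned to -0.045 with the mean log2 marker level. The count of genes lower, 81, was 16 to 198 when 1 library was left out, 134 with the replicate block, 48 with a pseudocount of 1 and 326 with the mean log2 level. Genes higher numbered 13618 without the filter. Nectin2 was called with the replicate block (adjusted p = 0.0237), without the filter (0.0488) and with the mean log2 level (0.00699), and Cd276 was not called with a pseudocount of 1 (0.0826).

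Relative to the leukocyte markers, a pseudocount of 1 turned Pdcd1lg2 to -0.0561, Cd80 to -0.378 and Cd86 to -0.494. The mean log2 level turned Cd274 to 0.384 and Vsir to 0.177. The macrophage sum turned Pdcd1lg2 to -0.721, Cd80 to -0.911 and Cd86 to -0.248. Genes higher, 101, numbered 39 with a pseudocount of 1, 288 with the mean log2 level and 14 with the macrophage sum, and genes lower 19369 without the filter. The causes were not tested. Depth limits Cd86 most, which had 16 to 42 reads in negative libraries.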

Other observations

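The 2 genes for TIGIT ligands, Nectin2 and Pvr, lie in a stretch of chromosome 7 that also holds apolipoprotein genes. Within 200 kb of the pair, 12 other genes were tested, of which 9 fell, 2 rose and 1, Gemin7, was not called, and 6 fell under median-of-ratios scaling. Of all 10060 genes tested 45.5% fell and 23.3% rose, and 3036 fell under median-of-ratios scaling. These genes were looked up after the values of Nectin2 and Pvr were seen. Apoe, which encodes a lipid-carrying protein made by hepatocytes and macrophages, was at 3053 FPKM in negative and 2013 FPKM in positive libraries (log2 change -0.60, adjusted p = 4.81e-05, limma). Its neighbour Apoc1 was at 122 and 78.9 FPKM, Tomm40 had a log2 change of -0.49, Bcam of -0.59 and Cblc of -0.84, the last close to the -0.84 of Nectin2. The 2 genes that rose were Relb (8.84 to 14.5 FPKM, log2 change 0.62, adjusted p = 0.0096, limma) and Bcl3 (4.29 to 6.11 FPKM, log2 change 0.43, adjusted p = 0.00312, limma).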
